A study of Mus musculus with 4 samples.

Results

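The comparison described here set the library labelled ObF1 and 1,3BD against the library labelled ObF1 and water, in a series on parental obesity and the programming of adipose progenitors. It used 2 of the 4 libraries of the series, and the matching LnF1 libraries, 1 per drink, are quoted only beside it. RNA was sequenced from stromal vascular cells of the inguinal white fat depot, that is, from what remains of the tissue once the buoyant fat cells are removed. All 4 groups were male wild-type mice at postnatal day 21, and each library pooled 3 mice. The labels give no diet, strain or further genotype for the parents, do not spell out 1,3BD, and do not say whether the dams or the pups drank it or for how long. The deposited columns that carry no drink in their name were taken as water. Of 55536 rows, the 10176 genes with a mean of at least 5 CPM over both ObF1 libraries were described. CPM here is the read count scaled to the library total, times a scaling factor that the authors applied. A difference is log2(CPM + 0.08) with 1,3BD minus the same with water, and a gene was counted as higher or lower when this reached 1 in size, that is 2-fold. Where 2 levels are joined by "against", the 1,3BD library comes first. There was 1 library on each side, so no difference below has a replicate, a p-value or a measure of the spread between animals.

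As background, 1,3BD is the usual short form of 1,3-butanediol, an alcohol that the liver oxidises to the ketone body beta-hydroxybutyrate. The stromal vascular fraction holds fibroblast-like adipose progenitors, which can become fat cells, along with cells of vessels, nerves and blood. Progenitors that lose progenitor genes on the way to a fat cell gain PPARG and its lipid-handling targets, whereas those that become myofibroblasts gain smooth muscle actin, actin-bundling proteins, collagen and matricellular growth factors.

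The ObF1 libraries held 26000090 reads with water and 25432747 with 1,3BD, so 1 read was worth 0.0434 and 0.0375 CPM. Of the fibroblast and progenitor markers, Pdgfra, the platelet-derived growth factor receptor alpha, stood at 236 CPM with water and 412 CPM with 1,3BD, while Pdgfrb (154 against 716 CPM) and Thy1 (281 against 749 CPM) were lower, and Lum, Dpp4 and Pi16 had at most 20 reads in either library. Cd34 (14.6 against 3.56 CPM), Dcn (81.1 against 63.9 CPM) and Ly6a (202 against 182 CPM) did not fall. F3 (266 against 621 CPM), Icam1 (2.36 against 13.1 CPM), Col1a1 (3371 against 18761 CPM) and Col3a1 (5239 against 8263 CPM) were lower. The summed level of the 13 markers was 29611 and 10024 CPM, most of it from collagen genes. White blood cell markers summed to 14.5 and 8.59 CPM, with Cd3e and Cd79b at 0 reads, and the 6 endothelial markers to 30.1 and 5.62 CPM, with Cldn5 at 0 reads. Adipoq and Lep, the defining adipokines of fat cells, Epcam of epithelium and Ucp1 of brown fat had 0 reads in both. Fibroblast collagen genes and Pdgfra were thus abundant in both libraries, with few traces of the blood and endothelial cells that the label would allow. The 7 mural and smooth muscle markers, which vessel walls also express, summed to 8507 and 204 CPM and are described with the contractile genes. The ObF1 libraries also stood apart from each other in 2 technical measures. Mitochondrially encoded genes took 1.30% of reads with water and 5.80% with 1,3BD, against 1.13% and 2.78% in LnF1. Ribosomal RNA gene models took 2.59% and 0.179%, against 2.07% and 1.90% in LnF1. Whether these measures have a part in the differences below was not tested.

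The difference between 1,3BD and water in ObF1 was broad. Of the 10176 genes, 1115 (11%) were at least 2-fold higher and 1763 (17.3%) at least 2-fold lower with 1,3BD. At 4-fold the lower side was longer still, with 166 genes higher (1.63%) and 544 lower (5.35%), and at 8-fold there were 54 and 212. The other 7298 genes (71.7%) lay within 2-fold. The 2-fold shares of 11% and 17.3% are the background for every list count below. The median gene differed by -0.05, and the middle 50% of genes lay between -0.70 and 0.55. Just outside the limit of 5 CPM were Mettl22 and Zmat1 (means of 4.995 and 4.996 CPM, differences of -0.50 and 0.76), and just inside it were Tmem141 and Fam131a (-0.55 and -1.63). The split into higher and lower depended on the scaling: 38.7% of the genes past 2-fold were higher with the deposited factors, 58.3% with plain library totals, which moved the median gene to 0.20, and 63.2% with totals of nuclear genes, which moved it to 0.27. Such a rescaling shifts every gene alike. All directions below are relative to the deposited scaling, and a list whose median changed sign under another scaling is named as such.

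**Figure D1:**
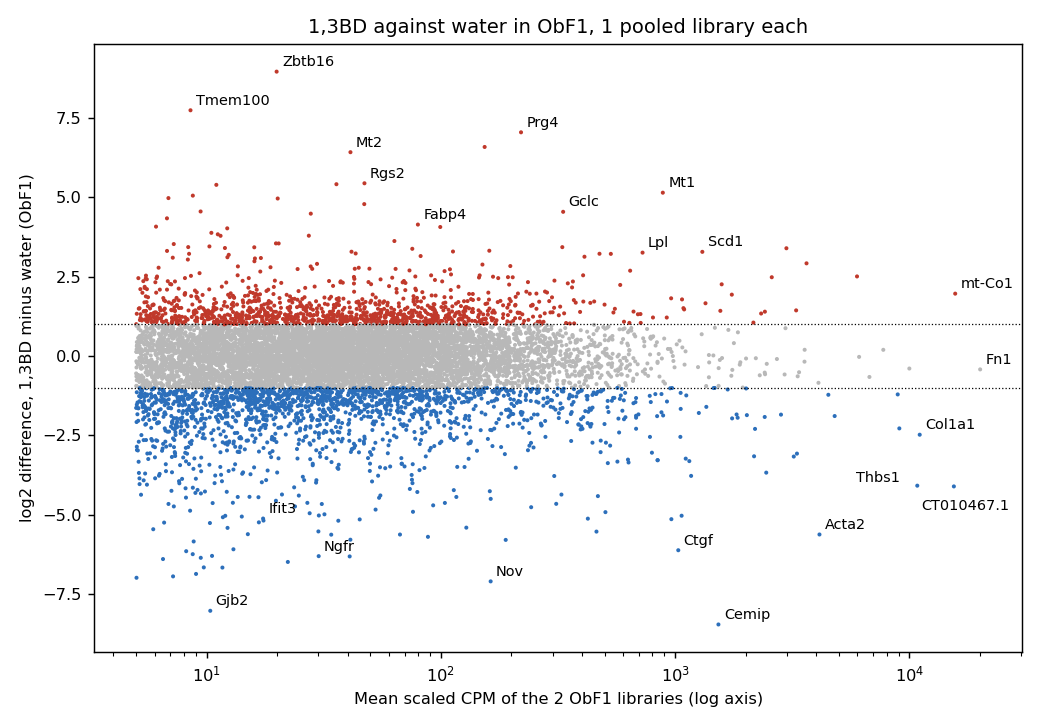
Each point is 1 of the 10176 genes, with the mean scaled CPM of the 2 ObF1 libraries on a log axis against the log2 difference, 1,3BD minus water. Red points are the 1115 genes at least 2-fold higher and blue points the 1763 at least 2-fold lower; the blue points reach into the most highly expressed genes, such as Thbs1 and Acta2.

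The differences also followed the base composition of the transcripts. Among the 20% of genes with the lowest GC content in their longest annotated transcript (median 41.1%), 23.8% were at least 2-fold higher and 4.13% lower. Among the 20% with the highest GC (median 57.5%), 1.92% were higher and 39.5% lower. The medians of the 5 groups ran from 0.55 down to -0.77, and Spearman's rho across genes was -0.510, given as a description because genes share the same 2 libraries. In LnF1 the same rho was -0.415. Transcript length showed a smaller trend, with a rho of 0.203. Because several gene lists are rich in GC, each list median that changes by more than 1.5 times when a gene is set against the median of genes of similar GC (20 bands of GC, an alternative added after the trend was seen) is printed with that second value, called the GC-centred median. With GC centring, 911 of 10170 genes were at least 2-fold higher and 1240 at least 2-fold lower, the background for GC-centred list counts. Whether the trend comes from the tissue or from library preparation was not tested.

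**Figure D2:**
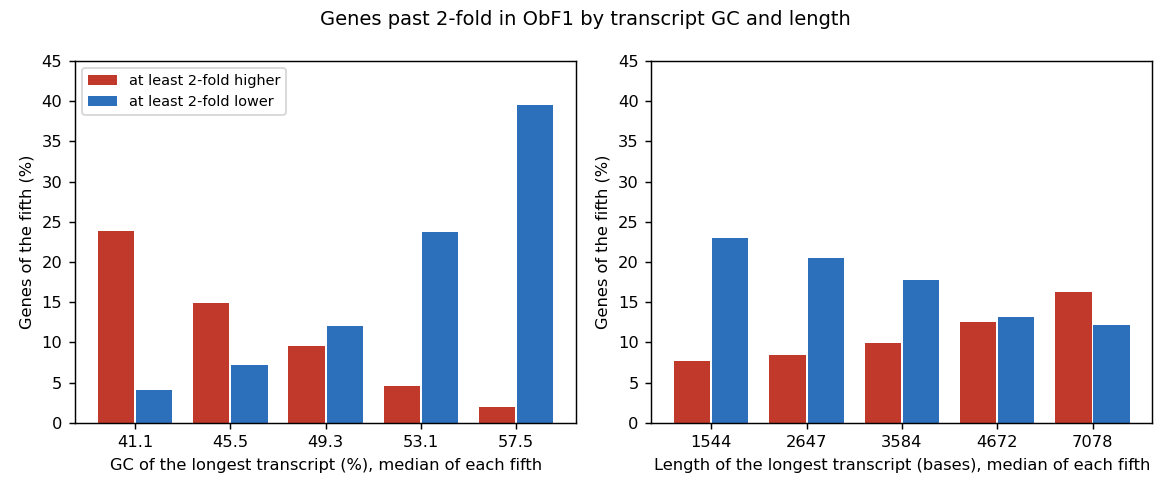
Bars give the percentage of genes at least 2-fold higher (red) or lower (blue) with 1,3BD in ObF1, in 5 groups of 20% of the genes by GC content (left) and by length in bases (right) of the longest annotated transcript; the number under each pair is the median of that group. The share of lower genes goes from 4.13% to 39.5% with GC, and the share of higher genes is 23.8% at the low end and 1.92% at the high end.

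The 15 named genes furthest above water, numbered gene models and pseudogenes aside, are described here, apart from Mt1, Mt2 and Gclc, which come with their lists. Zbtb16 (chromosome 9, 48654297 to 48836222, GRCm38), which encodes the zinc finger repressor PLZF, had no read with water and 1061 reads with 1,3BD (39.8 CPM). Against a floor of 3 reads in the water library this was at least 305-fold higher. Tmem100, a transmembrane protein of the BMP pathway, likewise had no read with water and 17.1 CPM with 1,3BD, at least 131-fold higher. Both genes thus passed the 5 CPM minimum through the 1,3BD library alone. Prg4 (chromosome 1, 150449412 to 150466165), which encodes the lubricating proteoglycan lubricin, stood at 3.21 CPM with water and 436 CPM with 1,3BD, a 136-fold difference (95% counting interval of the log2 ratio 6.76 to 7.43). These intervals cover counting error only. Serpina3n, a secreted inhibitor of serine proteases, stood at 1.56 CPM with water and 70.0 CPM with 1,3BD, and Rgs2, which shortens G protein signalling, at 2.04 CPM with water and 92.3 CPM with 1,3BD. Gab3, an adaptor of receptor signalling, was at 18.1 against 0.695 CPM. Alpl, the tissue non-specific alkaline phosphatase, was at 53.4 against 2.30 CPM. Slc10a6, a transporter of sulfated steroids, was at 39.0 against 1.17 CPM. Ism1, a secreted isthmin, was at 90.9 against 3.21 CPM, and Map7d2, a microtubule-associated protein, at 17.0 against 0.434 CPM. Prl2c3 (5.39) and Prl2c2 (4.98) are near-identical proliferin genes, whose reads could not be told apart with certainty. A numbered gene model that the naming rule skips, Gm29216, was also among them at 304 against 3.08 CPM; it was singled out after its values were seen.

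The 15 named genes furthest below water were led by Cemip, Gjb2 and Nov. Cemip (chromosome 7, 83932857 to 84086502), which drives the breakdown of hyaluronan, stood at 3052 CPM with water and 8.62 CPM with 1,3BD, 354-fold lower (counting interval -8.66 to -8.28). Nov, a matricellular protein of the CCN family, was at 324 CPM with water and 2.29 CPM with 1,3BD, 142-fold lower. Gjb2, the gap junction protein connexin 26, had 477 reads with water and none with 1,3BD, at least 184-fold lower, and C1qtnf2, a secreted adipokine relative, had 231 and none, at least 89.2-fold lower. Edn1, the vasoconstrictor endothelin 1, had 330 reads against 1, a log2 ratio with a counting interval of -13.89 to -6.09. Ptprb, a receptor phosphatase of vessel cells, had 445 against 3 reads (-9.71 to -5.87), Foxs1, a forkhead factor, 413 against 2 (-10.95 to -6.04), and Dio3, which inactivates thyroid hormone, 298 against 2 (-10.48 to -5.57). The 1,3BD library was thus at or near its floor for all of these but Cemip and Nov. Edn1 and Ptprb are also genes of endothelial cells, whose 6 markers summed to 30.1 and 5.62 CPM; the part of that difference was not tested. Tnfrsf11b, the decoy receptor osteoprotegerin, was at 0.412 against 44.0 CPM. Ngfr, the low-affinity neurotrophin receptor, was at 0.675 against 59.5 CPM, and Ankrd1, a stretch-responsive ankyrin repeat protein, at 0.937 against 80.6 CPM. Cntn2 (-6.66), Rgs8 (-6.35) and Serpinb9b (-6.29, a member of a family with near-identical copies) made up the rest of the named set with Aldh1a3, described with the retinoid genes.

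Contractile genes had the lowest median of the 46 lists. Of 29 genes, 28 were described, 26 were at least 2-fold lower and 0 higher, against 17.3% lower and 11% higher over all genes. Their median was -3.13, against -0.05 for all genes, and their share of reads went from 2.99% with water to 0.588% with 1,3BD. Acta2 (chromosome 19, 34241090 to 34255590), smooth muscle actin and the usual marker of myofibroblasts, stood at 8097 CPM with water and 165 CPM with 1,3BD, 49.2-fold lower. Myl9, the regulatory light chain of myosin, stood at 824 CPM with water and 23.6 CPM with 1,3BD, and Cnn1, the actin-binding calponin 1, at 598 CPM with water and 23.7 CPM with 1,3BD. Lmod1, which nucleates actin filaments, was at 3.26 against 173 CPM, Actg2, the enteric smooth muscle actin, at 19.5 against 903 CPM, and Mrvi1, an anchor of cGMP kinase signalling, at 0.300 against 25.7 CPM. Genes of the general actin machinery were lower as well, with Tpm1 (tropomyosin) at 159 against 2180.3 CPM, Flna (filamin A) at 644 against 5774 CPM and Myh9 (non-muscle myosin) at 743 against 3643 CPM. Srf, the transcription factor of the contractile genes, was lower (-2.11), and so was its coactivator gene Mkl1 (-1.27), while Mkl2 was at 0.68. Cald1, the caldesmon gene, stayed within 2-fold (-0.58). The 7 mural cell markers, which share Acta2 and Myh11 with this list, summed to 8507 and 204 CPM, almost all of it Acta2, and the 4 skeletal muscle markers, led by Acta1, to 61.9 and 1.87 CPM. In a bulk sample, fewer contractile cells and less RNA per cell cannot be told apart. Of the markers shared with pericytes, Mcam stood at 2.59 against 131 CPM, Notch3 at 24.5 against 51.7 CPM and Rgs5 at 0.750 against 3.95 CPM, Cspg4 had 183 reads with water and 1 with 1,3BD, and Kcnj8 had 2 reads in each.

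The serum response factor binds the CArG box, and 2 promoters of the list that hold a match are shown, because both genes were among the lower ones. The sequences are from RefSeq on GRCm38.p6 and run from 250 bases before to 50 after the gene start. Capitals mark the match, searched on both strands. Myl9 lies at chr2:156775214-156775513 and Cnn2, calponin 2 (42.0 against 894 CPM), at chr10:79988350-79988649, both on the plus strand.
Myl9: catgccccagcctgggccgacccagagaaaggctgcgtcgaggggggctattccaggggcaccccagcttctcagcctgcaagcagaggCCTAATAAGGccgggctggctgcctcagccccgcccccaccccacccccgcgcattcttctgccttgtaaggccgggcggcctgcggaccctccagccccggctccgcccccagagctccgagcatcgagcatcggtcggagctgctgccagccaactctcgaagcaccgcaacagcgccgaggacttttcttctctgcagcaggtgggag
Cnn2: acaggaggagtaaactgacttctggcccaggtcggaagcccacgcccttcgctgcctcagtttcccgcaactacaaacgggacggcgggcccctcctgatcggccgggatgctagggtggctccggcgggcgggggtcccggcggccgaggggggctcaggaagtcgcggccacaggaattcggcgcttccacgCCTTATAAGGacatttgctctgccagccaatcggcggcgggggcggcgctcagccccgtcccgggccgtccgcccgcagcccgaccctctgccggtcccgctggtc
A CArG box was found in 5 of the 23 contractile promoters in the table (21.7%) and in 1.63% of all 32851 promoters. Across described genes it was found in 2.81% of the 1354 lower genes with a promoter and in 1.60% of the 815 higher ones. Within the contractile list, the median was -2.67 for the 5 genes with a match and -3.13 for the rest, so the match did not separate larger from smaller differences. A match is a description of the letters, not a binding site.

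The YAP and TEAD coactivator system reads cell tension, and genes of its pathway and targets were put in 1 list. Ctgf and Cyr61, also known as targets, were kept with the matricellular genes below, so the counts and median here leave them out. Of 24 described, 10 were lower (GC-centred 6), 1 was higher and 13 lay within 2-fold, with a median of -0.69. Besides Ankrd1, the lower ones were led by Nuak2, a kinase of the actin skeleton (1.95 against 26.4 CPM), Ajuba (6.49 against 54.4 CPM), Amotl2 (132 against 559 CPM) and the receptor kinase gene Axl (282 against 1081 CPM). The core factors differed less: Yap1 -0.66, Tead1 -0.05 and Wwtr1, which encodes TAZ, 0.65. Sav1, a scaffold of the inhibiting kinases, was the higher member (167 against 56.4 CPM).

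Matricellular genes held some of the most abundant transcripts of the water library and were lower in most cases. Of 23 matricellular, hyaluronan and proteoglycan genes, 16 were lower and 3 higher, the median was -1.92, and their share of reads was 7.16% and 4.30%. Ctgf, the CCN2 growth factor of fibrosis, stood at 2033 CPM with water and 29.2 CPM with 1,3BD, 69.5-fold lower. Thbs1, thrombospondin 1, an activator of latent TGF-beta, stood at 20404 CPM with water and 1205 CPM with 1,3BD, 16.9-fold lower. Other CCN family genes were lower too, with Wisp2 at 17.2 against 468 CPM, Wisp1 at 30.3 against 624 CPM and Cyr61 at 119 against 1139 CPM. Cd44, the hyaluronan receptor, was at 96.8 against 441 CPM, and Spp1, osteopontin, at 31.3 against 196 CPM. Going the other way were Prg4, given above, Vcan, the large hyaluronan-binding proteoglycan versican, at 5452 against 517 CPM (3.40), and Tnxb, a tenascin of loose connective tissue, at 13.6 against 5.52 CPM. Fn1, fibronectin, kept within 2-fold (-0.42), as did Has2, a hyaluronan synthase (-0.76), and the small proteoglycan gene Bgn (0.20).

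All 22 collagen chain genes described were below water to some degree, and 14 of them at least 2-fold. Their share of reads was 5.96% with water and 2.46% with 1,3BD. The median was -1.87 (GC-centred -1.16, with 13 still past 2-fold), and the collagen transcripts have a median GC of 56.5%. The chains of type I collagen, the main fibril of skin and fascia, stood at 3371 against 18761 CPM for Col1a1 and 3097 against 15017 CPM for Col1a2. Col8a1, a short-chain collagen of vessel walls, was 56.0-fold lower (6.64 against 372 CPM), and Col14a1, which organises fibrils, was at 1.27 against 66.8 CPM. Chains of the basement membrane ranged widely, with Col18a1 at -3.40 and Col15a1 at -2.74, but Col4a1 at -0.51 and Col4a2 at -0.57, and type III collagen lay within 2-fold (Col3a1 -0.66). In LnF1 the list median was -0.80, with 10 lower and 1 higher.

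Elastic fibre and crosslinking genes were lower in 11 of 20, with a median of -1.19 that shrank to -0.40 when GC-centred, with 5 then lower and 1 higher. The lysyl oxidase relatives Loxl4 (5.66 against 67.3 CPM) and Loxl3 (74.9 against 402 CPM) and the fibre assembly gene Fbln5 (34.8 against 232 CPM) were lower, while Lox itself, the main crosslinking enzyme of collagen, was level (6047 against 6152 CPM, -0.02). Matrix proteases and their inhibitors were lower in 14 of 22 and higher in 1, with a median of -1.45. Timp3, a matrix-bound inhibitor of metalloproteases, stood at 63.3 against 2068 CPM. Plau, the protease urokinase, stood at 7.42 against 92.0 CPM, and its receptor gene Plaur at 0.525 against 29.5 CPM, both lower. Mmp14, the membrane collagenase, was at 422 against 1152 CPM, and Mmp2, which it activates, at 123 against 249.6 CPM. Among integrins and laminins 10 of 22 were lower (median -0.99, GC-centred -0.62). The collagen-binding integrin gene Itga11 was at 105 against 856 CPM and the fibronectin receptor chain Itga5 at 327 against 834 CPM. Lamc1, the laminin gamma 1 chain, was the higher member (1606 against 564 CPM).

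**Figure D3:**
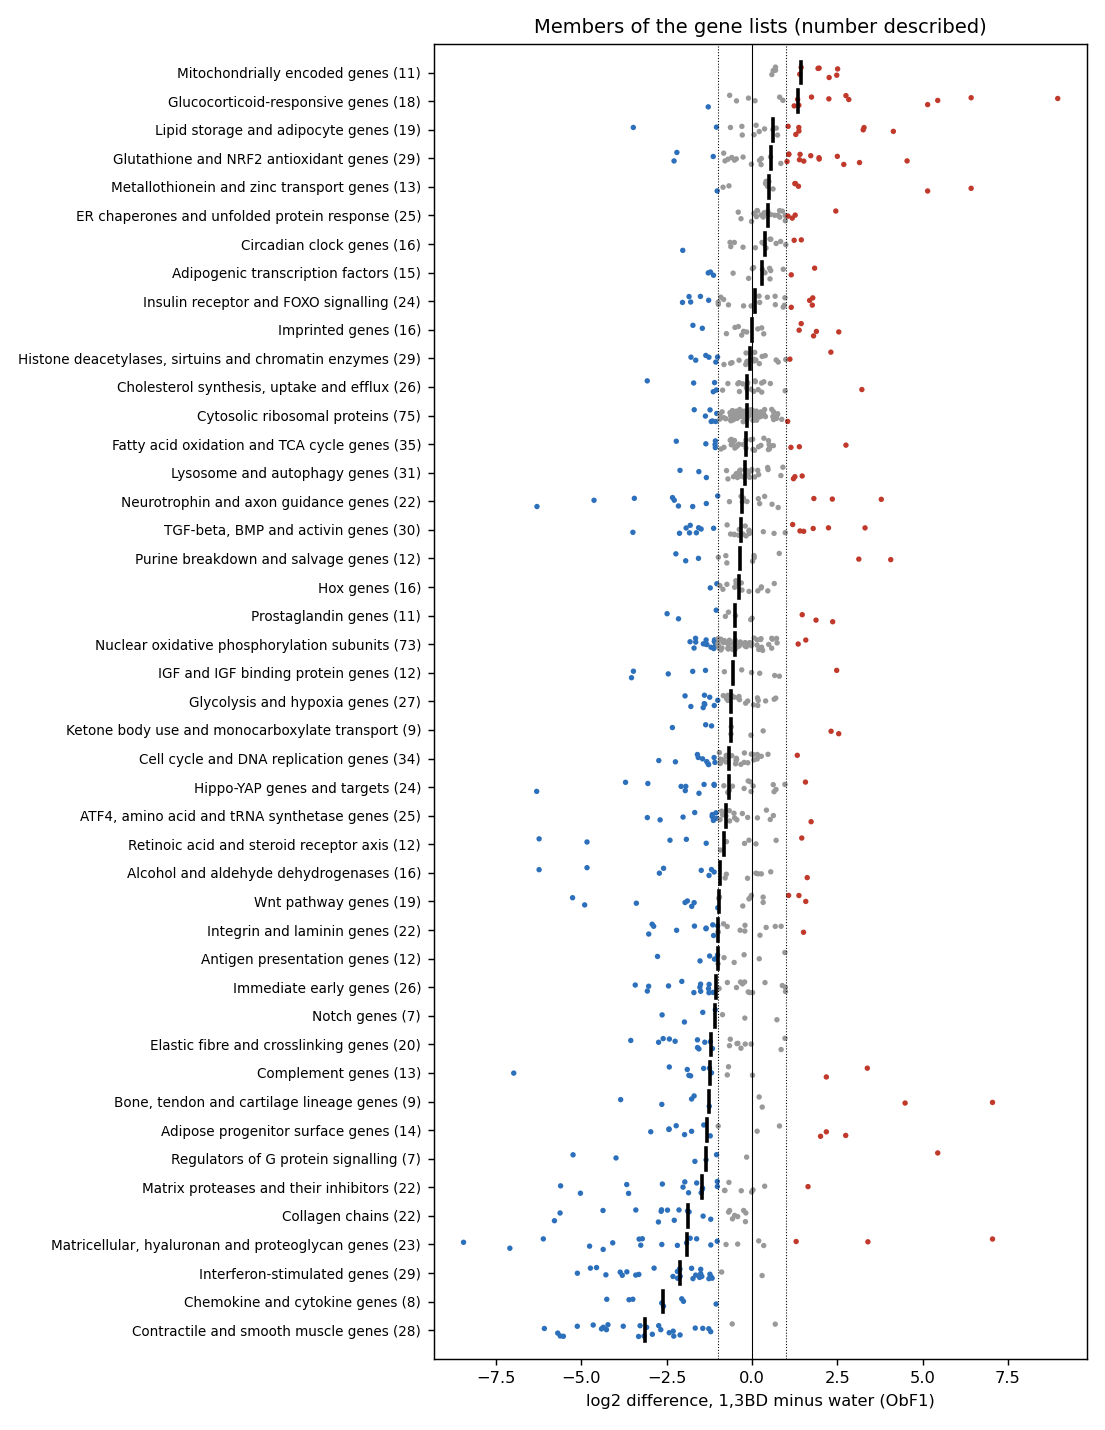
Each point is a member of a gene list, placed by its log2 difference, 1,3BD minus water, in ObF1; the black bar is the list median and the number in parentheses counts the members at or above 5 CPM, in lists with at least 7 of them. Dotted lines mark 2-fold; the contractile list sits furthest to the left (median -3.13) and the mitochondrially encoded genes furthest to the right (1.44).

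Interferon-stimulated genes, the antiviral set that type I and type II interferons switch on, were lower nearly throughout. Of 29 described, 27 were at least 2-fold lower and 0 higher, with a median of -2.12. Ifit3, which binds viral RNA complexes, stood at 33.9 CPM with water and 0.900 CPM with 1,3BD, 37.7-fold lower (counting interval -5.89 to -4.65). Isg15, a ubiquitin-like modifier, stood at 37.97 CPM with water and 1.54 CPM with 1,3BD, and Irgm1, an interferon-induced GTPase, at 151 CPM with water and 7.69 CPM with 1,3BD. Among the factors that carry the signal, Irf9 was at 14.3 against 41.7 CPM and Irf7 at 4.42 against 20.4 CPM, while Stat2 (-0.89) and Trim25 (0.30) were within 2-fold. White blood cell markers, a possible source of such transcripts, summed to 14.5 and 8.59 CPM; their part was not tested.

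The promoters of Ifit3 and Ifit1 (1.65 against 46.0 CPM) are shown because each holds 2 copies of the interferon-stimulated response element (GAAA, any 2 bases, GAAA), found here on the opposite strand and set in capitals. Both strands were searched, and overlapping matches were counted. They lie at chr19:34583279-34583578 and chr19:34640639-34640938 on the plus strand (RefSeq, GRCm38.p6).
Ifit3: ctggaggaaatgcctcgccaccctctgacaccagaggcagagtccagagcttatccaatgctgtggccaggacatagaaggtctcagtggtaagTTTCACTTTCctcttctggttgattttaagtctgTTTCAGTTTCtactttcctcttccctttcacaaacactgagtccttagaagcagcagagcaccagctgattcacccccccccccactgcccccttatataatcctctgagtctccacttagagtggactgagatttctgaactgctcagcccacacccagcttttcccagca
Ifit1: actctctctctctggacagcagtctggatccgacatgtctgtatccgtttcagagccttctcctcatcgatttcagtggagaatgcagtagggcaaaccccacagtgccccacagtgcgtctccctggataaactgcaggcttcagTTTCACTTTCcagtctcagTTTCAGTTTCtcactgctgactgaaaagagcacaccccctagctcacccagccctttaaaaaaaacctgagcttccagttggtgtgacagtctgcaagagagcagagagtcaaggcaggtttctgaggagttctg
The element was found in 12 of the 21 interferon-stimulated promoters in the table (57.1%), against 3.44% of all promoters. Members with a match had a median of -2.86 and members without it -1.54. Among all described genes it was found in 3.99% of the lower genes, 2.82% of the higher ones and 3.64% of those within 2-fold.

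Antigen presentation genes were lower in 6 of 12, with a median of -1.001 (GC-centred -0.32, then 2 lower). Psmb10, an immunoproteasome subunit, was the furthest below (2.14 against 15.03 CPM), while B2m, the light chain of class I molecules, was level (0.21) and H2-Ab1, a class II chain, stood at 22.6 against 11.6 CPM. All 8 chemokine and cytokine genes described were at least 2-fold lower, with a median of -2.62. Cxcl14 was at 16.01 against 307 CPM, Ccl2, which draws monocytes, at 1.80 against 21.1 CPM, Cxcl12, which retains stem cells and lymphocytes, at 22.6 against 142 CPM, and Il6 at 3.52 against 14.4 CPM. Csf1, the growth factor of macrophages, was at 1091 against 2261 CPM. Complement genes were lower in 8 of 13 and higher in 2 (median -1.24), C3 among them at 6.86 against 24.1 CPM. Cd55, a membrane brake on complement, went the other way at 31.8 against 6.95 CPM.

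Genes known to respond to glucocorticoids were higher in 11 of 18 and lower in 1, with a median of 1.36. The 61.1% that were higher compare with 11% of all genes. Besides Zbtb16, Rgs2 and the metallothioneins, they included Glul, glutamine synthetase, at 347 against 48.5 CPM, Pdk4, which restrains pyruvate oxidation, at 86.3 against 12.7 CPM, Klf9 at 323 against 67.8 CPM and Fkbp5, a chaperone of the receptor, at 77.6 against 23.1 CPM. Tsc22d3, the glucocorticoid-induced leucine zipper, was at 75.2 against 29.7 CPM and Per1 at 99.7 against 42.3 CPM. The receptor gene Nr3c1 was level (102 against 109.9 CPM, -0.10). Sgk1 (-0.66) and Dusp1 (-0.45), further known targets, were within 2-fold, and Cebpd was lower (39.3 against 95.6 CPM). Several members also answer to other signals, such as zinc for the metallothioneins and fasting for Pdk4.

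Metallothioneins are small cysteine-rich proteins that buffer zinc and copper. Mt1 stood at 48.5 CPM with water and 1723 CPM with 1,3BD, 35.5-fold higher (counting interval 5.06 to 5.24), and Mt2 at 0.869 CPM with water and 81.3 CPM with 1,3BD, 93.6-fold higher (5.92 to 7.26). In LnF1 they stood at 595 against 66.0 CPM for Mt1 and 21.3 against 0.849 CPM for Mt2. Of 13 genes in the metallothionein and zinc transport list, 5 were higher and 1 lower (median 0.50). Slc30a1, the zinc exporter that MTF1 controls, was at 26.2 against 10.8 CPM, and the importers Slc39a6 and Slc39a8 at 307 against 119 CPM and 23.9 against 9.95 CPM. Mtf1, the zinc sensor, was within 2-fold (0.45). Without both metallothioneins the list thus held 3 genes past 2-fold upward.

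The promoters of both metallothionein genes are shown for the pattern TGCNCNC, which was searched here as the core of the metal response element. Matches on either strand are in capitals (opposite strand GNGNGCA). Mt2 lies at chr8:94172368-94172667 and Mt1 at chr8:94178839-94179138, both on the plus strand (RefSeq, GRCm38.p6).
Mt2: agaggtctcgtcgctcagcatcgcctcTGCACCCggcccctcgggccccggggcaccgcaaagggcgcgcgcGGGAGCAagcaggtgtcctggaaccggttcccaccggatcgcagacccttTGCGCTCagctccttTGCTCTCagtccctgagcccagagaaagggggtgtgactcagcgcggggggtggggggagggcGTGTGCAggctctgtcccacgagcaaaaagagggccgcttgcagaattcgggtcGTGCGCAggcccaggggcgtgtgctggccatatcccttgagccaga
Mt1: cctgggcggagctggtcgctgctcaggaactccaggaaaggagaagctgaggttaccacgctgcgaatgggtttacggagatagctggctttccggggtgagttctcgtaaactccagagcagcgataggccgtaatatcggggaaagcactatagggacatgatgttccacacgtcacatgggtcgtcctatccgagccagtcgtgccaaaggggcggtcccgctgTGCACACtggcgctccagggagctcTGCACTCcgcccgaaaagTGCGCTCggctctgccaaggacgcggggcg
The search gave 6 matches for Mt2 and 3 for Mt1. The pattern is short, and 51.0% of all promoters hold it. Counted by gene, in any promoter of the gene, it was found in 65.0% of described genes with a promoter. The higher genes had it in 64.0% and the lower genes in 67.4%, so its presence alone sets no gene apart.

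Genes of glutathione synthesis and of the NRF2 antioxidant response were more often higher than lower, with 13 of 29 higher and 3 lower (median 0.54). Among the synthesis genes, Gclc, the catalytic subunit of the rate-limiting ligase, stood at 27.2 CPM with water and 638 CPM with 1,3BD, 23.4-fold higher (counting interval 4.43 to 4.67). Its partner Gclm stood at 50.05 CPM with water and 284 CPM with 1,3BD, and the cystine importer gene Slc7a11 at 16.5 CPM with water and 147 CPM with 1,3BD. Hmox1, which degrades heme, was at 1113 against 172 CPM, Cat, which removes peroxide, at 407 against 104 CPM, Srxn1, which repairs peroxiredoxins, at 381 against 97.7 CPM, and Sod2 of mitochondria at 126 against 38.2 CPM. NADPH-forming enzymes of the pentose phosphate pathway were higher as well, with G6pdx at 288 against 108 CPM and Pgd at 569 against 217 CPM. Glutathione peroxidase genes lay below water, Gpx1 at 57.5 against 280.4 CPM, Gpx7 at 10.5 against 48.7 CPM and Gpx4 at 104 against 229 CPM. Nqo1, a standard NRF2 target, was within 2-fold (0.27), while Nfe2l2, which encodes NRF2, was at 352 against 166 CPM.

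The promoters of Gclm and Srxn1 each hold 1 match to the core of the antioxidant response element, TGACNNNGC, found on the opposite strand and set in capitals. They lie at chr3:122245307-122245606 and chr2:152105274-152105573, both on the plus strand (RefSeq, GRCm38.p6).
Gclm: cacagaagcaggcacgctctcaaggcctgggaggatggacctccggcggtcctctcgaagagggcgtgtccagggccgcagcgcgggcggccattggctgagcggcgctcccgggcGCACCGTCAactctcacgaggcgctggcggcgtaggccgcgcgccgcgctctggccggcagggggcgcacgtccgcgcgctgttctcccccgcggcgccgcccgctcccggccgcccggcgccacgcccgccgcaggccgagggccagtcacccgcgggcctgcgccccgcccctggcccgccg
Srxn1: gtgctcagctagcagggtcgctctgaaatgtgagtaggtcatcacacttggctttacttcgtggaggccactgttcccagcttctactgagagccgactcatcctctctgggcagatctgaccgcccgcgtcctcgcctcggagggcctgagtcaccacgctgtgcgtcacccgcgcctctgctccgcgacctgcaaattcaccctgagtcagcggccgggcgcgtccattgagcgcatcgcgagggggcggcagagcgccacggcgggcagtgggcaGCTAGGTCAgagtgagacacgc
The core was found in 9 of the 24 promoters of the list (37.5%) and in 12.4% of all promoters. List members with it had a median of 1.08 and those without it -0.46. Counted by gene, in any promoter of the gene, it was found in 17.5% of described genes with a promoter. Of these, the higher genes had it in 19.4% and the lower genes in 15.7%.

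Chaperones of the endoplasmic reticulum were mostly somewhat higher. Of 25 genes, 4 were at least 2-fold higher and 0 lower, with a median of 0.46. Dnajb9, a cochaperone that restrains IRE1, was at 297 against 54.1 CPM, and Hspa5, the chief chaperone BiP, at 2914 against 1402 CPM. The sensor genes Ern1 (88.2 against 36.6 CPM) and Eif2ak3 (54.3 against 23.9 CPM) were also past 2-fold, while Xbp1 was level (0.06). In LnF1, 12 of the genes were past 2-fold and the median was 0.90; Hyou1 stood at 1.86 there and 0.55 in ObF1. The endoplasmic reticulum stress element (CCAATN9CCACG, where N9 is any 9 bases) was found in 8 of 21 of these promoters. It was found in 0.119% of all promoters and in 0.176% of described genes with a promoter. Targets of ATF4, the factor of the amino acid response, were lower in 9 of 25 and higher in 1 (median -0.76, GC-centred -0.38 with 3 lower and 3 higher). Phgdh, the entry enzyme of serine synthesis, was at 26.8 against 174 CPM, Trib3 at 38.4 against 156 CPM and the leucine transporter gene Slc7a5 at 92.5 against 296 CPM, with Atf4 itself level (-0.13). Slc7a11, which ATF4 also serves, was counted with glutathione and was higher.

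Several genes of lipid uptake and storage were far higher, while the transcription factors of fat cell formation were mixed. Fabp4, the fatty acid carrier of fat cells, stood at 8.47 CPM with water and 151 CPM with 1,3BD, 17.8-fold higher. Lpl, which frees fatty acids from circulating fat, stood at 137 CPM with water and 1314 CPM with 1,3BD, and Scd1, which desaturates them, at 243 CPM with water and 2369 CPM with 1,3BD. The plot of levels by library shows the same direction for Fabp4 and Lpl in LnF1. In all, 7 of 19 lipid genes were higher and 2 lower (median 0.61, 1 lower when GC-centred). Abhd5, which activates lipolysis, was at 113 against 43.7 CPM and Lpin1, which makes diacylglycerol, at 67.3 against 25.9 CPM. Fasn (0.06), Acly (-0.30) and Plin2 (0.21) were within 2-fold. Fabp5, a second fatty acid carrier, was lower (9.94 against 112 CPM). Plin1, the coat protein of mature droplets, had 1 read with water and 49 with 1,3BD, under the 5 CPM limit, and the adipokine genes Adipoq and Lep had none.

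Pparg, the master factor of fat cell formation, stood at 5.69 CPM with water and 20.5 CPM with 1,3BD, 3.60-fold higher. Cebpb, which acts early, was at 48.0 against 21.6 CPM, and Cebpa, which acts late, was level (18.1 against 17.9 CPM, 0.01, but GC-centred 1.01). Cebpd (-1.28), Stat5b (-1.22) and Srebf1 (-1.13) were lower. With 2 of 15 higher and 3 lower, the shares (13.3% and 20%) lay near the 11% and 17.3% of all genes. The median was 0.31 (GC-centred 0.78, with 5 higher and 1 lower). It changed sign at a minimum of 20 CPM (-0.10) and without a minimum (-0.08). Surface genes of progenitors were lower in 8 of 14 and higher in 3 (median -1.32). Pdgfrb was at 154 against 716 CPM, Thy1 at 281 against 749 CPM, F3 at 266 against 621 CPM and Cd9 at 6.60 against 52.1 CPM. Cd24a, of the earliest progenitors, was at 112 against 16.6 CPM and Cd34 at 14.6 against 3.56 CPM. Ly6a was level (202 against 182 CPM, 0.15). Among the 3 beige fat genes described, Tbx15 was at 278 against 129 CPM, and the list median (-0.10, GC-centred -0.36) changed sign with library totals (0.14) and with nuclear totals (0.21).

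**Figure D4:**
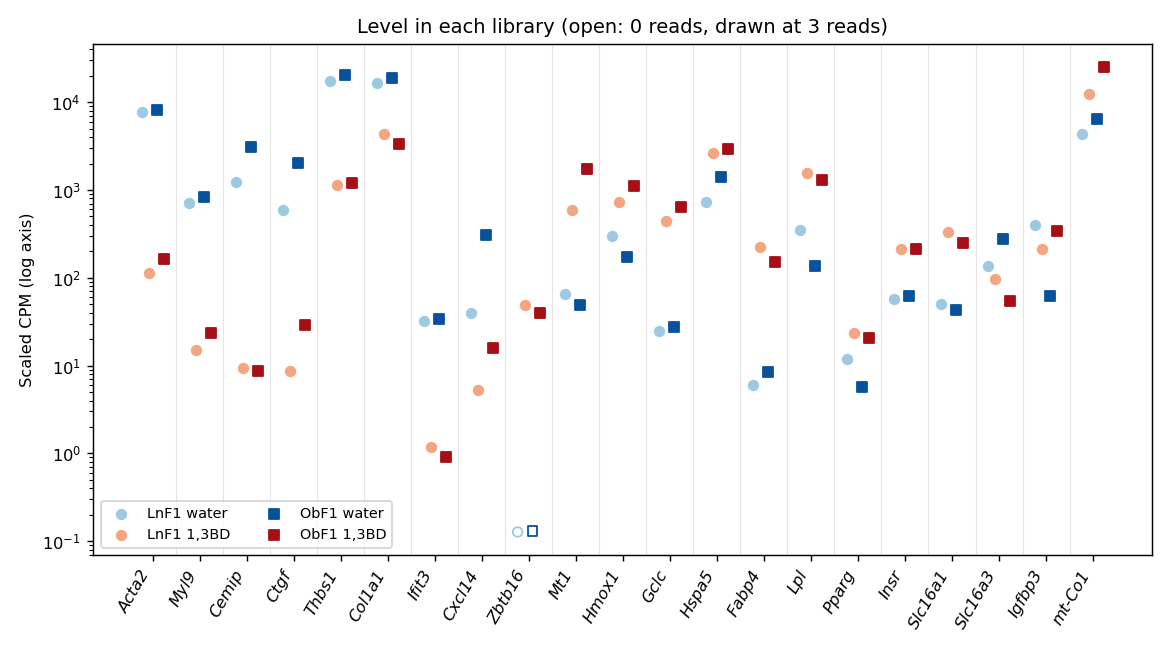
Scaled CPM on a log axis for 21 named genes in each of the 4 libraries, with circles for LnF1, squares for ObF1, blue for water and red for 1,3BD; open symbols are genes with 0 reads, drawn at the level of 3 reads. Acta2 and Thbs1 lie more than 10-fold lower with 1,3BD in both parental groups, Zbtb16 has reads only with 1,3BD, and Igfbp3 lies higher with 1,3BD in ObF1 and lower in LnF1.

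Ketone bodies enter cells through monocarboxylate transporters and are burned through BDH1, OXCT1 and ACAT1. The transporter genes differed in direction: Slc16a1 (MCT1) stood at 42.8 CPM with water and 249.9 CPM with 1,3BD and Slc16a6 (MCT7) at 3.997 CPM with water and 20.2 CPM with 1,3BD, while Slc16a3 (MCT4), the lactate exporter, stood at 275 CPM with water and 54.5 CPM with 1,3BD. Of the enzymes, Bdh1, which oxidises beta-hydroxybutyrate, was lower at 3.30 against 7.60 CPM. Oxct1, the step that commits ketone bodies to oxidation, was at 93.9 against 144 CPM (-0.62) and Acat1 at 77.9 against 62.1 CPM (0.33), both within 2-fold. Aacs, which uses acetoacetate for lipid synthesis, was lower (34.0 against 87.3 CPM). Over the 9 genes, 2 were higher and 3 lower, with a median of -0.61 (GC-centred -0.11, with 1 lower).

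Alcohol and aldehyde dehydrogenases, the enzymes that handle diols and aldehydes, were lower in 8 of 16 and higher in 1 (median -0.95, GC-centred -0.62 with 5 lower). The general enzymes Aldh2 (-0.79) and Adh5 (-0.13) were within 2-fold, and Aldh6a1, of valine breakdown, was the higher gene (82.3 against 26.8 CPM). The retinaldehyde dehydrogenases that make retinoic acid were far lower, Aldh1a2 at 3.49 against 102 CPM and Aldh1a3 at 0.150 against 17.3 CPM, with Aldh1a1 level (0.12). The retinoic acid receptor gene Rarg was lower as well (31.7 against 120.4 CPM). The retinoid and steroid receptor list counted 5 lower and 1 higher of 12 (median -0.83).

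The respiratory chain is encoded in 2 genomes. Of 11 mitochondrially encoded genes, 7 were higher and 0 lower, with a median of 1.44 (GC-centred 0.77). mt-Co1, a cytochrome oxidase subunit, stood at 6389 CPM with water and 24984 CPM with 1,3BD, and mt-Nd5, of complex I, at 1785 CPM with water and 10166 CPM with 1,3BD. Of 73 nuclear genes of oxidative phosphorylation, 15 were lower (20.5%, near the 17.3% of all genes, and 9 when GC-centred) and 2 higher (median -0.49). Among the lower ones were Atp5d of the ATP synthase at 34.0 against 119.9 CPM and Atp5b at 389 against 973 CPM. Atp5d was within 2-fold when GC-centred (-0.81). The nuclear median kept its sign under every scaling tried, at -0.24 with library totals and -0.18 with nuclear totals. Mitochondrial genes have near-identical nuclear copies, so their counts are uncertain. These genes make up nearly all of the mitochondrial share of each library given above.

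Glycolysis and hypoxia genes, put in 1 list, were lower in 9 of 27 and higher in 0 (median -0.60, GC-centred -0.25 with 5 lower). The lower ones included the hypoxia genes Adm (-1.43) and Egln3 (-1.40). Eno1 stood at 715 against 2786 CPM, Ldha, which forms lactate, at 566 against 1959 CPM, and Pgk1 at 664 against 1567 CPM, while Hif1a was level (0.04) and Vegfa within 2-fold (0.65). Fat oxidation and TCA cycle genes were split, 3 higher and 5 lower (3 when GC-centred) of 35, with a median of -0.18 that became 0.07 with library totals and 0.13 with nuclear totals. Cpt1a, the gate of fatty acids into mitochondria, was higher (173 against 66.0 CPM), and Acads, for short chains, lower (9.34 against 43.8 CPM). In purine breakdown 2 genes were far higher, Xdh, xanthine dehydrogenase, at 736 against 84.0 CPM and Gda, guanine deaminase, at 188 against 11.1 CPM, while Ada, adenosine deaminase, was at 3.07 against 14.7 CPM. The purine list counted 2 higher and 3 lower of 12 (median -0.36, 0.06 at a minimum of 20 CPM). Abca1, the cholesterol exporter, stood at 959.9 against 103 CPM. The other genes of cholesterol metabolism differed little: 1 of 26 was higher (Abca1), 5 were lower (1 when GC-centred), and the median of -0.14 became 0.10 with library totals. Ribosomal proteins had 1 higher and 7 lower of 75, with a median of -0.15 (GC-centred -0.07, with 5 higher and 2 lower) that became 0.09 with library totals. Lysosome and autophagy genes had 3 higher and 3 lower of 31 and a median of -0.20 (0.04 with library totals, GC-centred 0.05), with Ctsl at 1605 against 579 CPM and Ctsk at 31.1 against 91.8 CPM.

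Genes of the cell cycle, inhibitors among them, were lower in part. Of 34 cell cycle genes, 10 were lower (29.4%, against 17.3% of all genes, and 7 when GC-centred) and 1 higher (median -0.67). Ccnd1, the cyclin of mitogen response, was at 13.7 against 91.3 CPM, and Cdc20, of anaphase, at 7.20 against 34.4 CPM. Of the inhibitor genes, Cdkn1a (p21) was at 208 against 449 CPM and Cdkn2a at 12.3 against 36.7 CPM (-1.57, GC-centred -0.57). Mki67 (0.47), Top2a (0.04) and Pcna (0.15), the usual markers of cycling cells, were within 2-fold, and Rrm2, for nucleotide supply, was higher (165 against 65.7 CPM). Immediate early genes, which respond within minutes to stimulation and to tissue handling, were lower in 13 of 26 and higher in 0 (median -1.05, GC-centred -0.38, with 8 lower and 2 higher). Klf2 was at 1.69 against 18.9 CPM, Egr3 at 2.44 against 20.5 CPM, both lower, as was Atf3 (-3.07), while Egr1 (-0.11) and Jun (-0.34) were within 2-fold. Clock genes differed little (median 0.39, 2 higher, or 4 when GC-centred, and 1 lower of 16), with Rora at 185 against 67.8 CPM and the output gene Dbp at 7.05 against 29.0 CPM.

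Among secreted signals and their receptors, the Wnt inhibitor Dkk2 was at 4.84 against 147 CPM and the intracellular inhibitor Nkd2 at 0.450 against 20.2 CPM, with the ligand Wnt5a at 23.1 against 78.8 CPM. The coreceptor gene Lrp6 was higher (424 against 163 CPM), and the list counted 8 lower and 3 higher of 19 (median -0.95). In the TGF-beta family, lower ligand genes were Tgfb3 at 19.1 against 216 CPM, Tgfb1 at 21.9 against 61.7 CPM and Inhba, of activin A, at 99.6 against 435 CPM, and higher receptor genes were Tgfbr3 at 962 against 203 CPM and Tgfbr1 at 162 against 61.1 CPM. Over that list 9 were lower and 6 higher of 30 (median -0.32, GC-centred -0.03). Notch genes counted 4 lower of 7 (median -1.08, GC-centred -0.38 with 2 lower), with the target gene Hes1 at 6.82 against 42.8 CPM. Insulin signalling genes had 4 higher and 5 lower of 24 and a median of 0.09 (GC-centred -0.08, with 7 higher). Their shares, 16.7% higher and 20.8% lower, were not far from the 11% and 17.3% of all genes. Insr, the insulin receptor, stood at 212 against 62.2 CPM and its adaptor gene Irs2 at 35.5 against 10.9 CPM, both higher. Foxo1 was higher too (39.1 against 17.6 CPM), while Akt1 was lower (142 against 495 CPM, -1.80, GC-centred -0.79).

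IGF binding protein genes went in both directions. Igfbp2, Igfbp4, Igfbp5 and Igfbp6 were lower, at 9.15 against 107 CPM, 33.7 against 185 CPM, 11.5 against 128 CPM and 43.2 against 144 CPM in that order. Igfbp6 was within 2-fold when GC-centred (-0.73). Igf1 was at 19.8 against 51.0 CPM. Igfbp3, the main carrier of IGF in blood, was higher at 344 against 61.4 CPM (5.59-fold). Of 12 genes in the list, 1 was thus higher and 5 lower. Prostaglandin genes had 3 higher and 3 lower of 11 (median -0.48, 0.05 with nuclear totals), with the exporter gene Abcc4 at 117 against 22.5 CPM and the prostacyclin synthase gene Ptgis at 14.7 against 65.7 CPM. Neurotrophin and axon guidance genes had 3 higher and 9 lower of 22 (median -0.30, 0.01 with nuclear totals, GC-centred -0.71), with Ngfr far lower, Sema7a at 0.750 against 20.5 CPM and Draxin, a repellent of axons, at 21.4 against 1.48 CPM. The 4 nerve and glia markers summed to 18.9 and 1.31 CPM, and among them Sox10 had 196 reads with water and none with 1,3BD; their part in the Ngfr difference was not tested. Among the 7 members described of the list of G protein signalling regulators, 5 were lower (GC-centred 3), with Rgs4 at 0.262 against 12.9 CPM, and Rgs2 was higher (median -1.35). Rgs8, given above, was not on that list. Bone, tendon and cartilage genes had 2 higher and 5 lower of 9 (median -1.25), with Tnmd, a tendon gene, at 0.712 against 11.3 CPM and Sox9, of cartilage, at 10.6 against 34.6 CPM, while Alpl and Prg4 were higher. Chromatin enzymes had 2 higher and 6 lower of 29 (median -0.05, 0.19 with library totals, GC-centred 0.07 with 3 lower). The 20.7% that were lower lay near the 17.3% of all genes. Tet2, a DNA demethylase, was at 63.5 against 12.7 CPM and Hdac5 at 20.2 against 69.9 CPM (-1.79, GC-centred -0.78). Hox genes, which record position along the body, had 2 of 16 past 2-fold (median -0.39, GC-centred -0.15 with 0 lower), Hoxb9 (-1.22) and Hoxc9 (-1.03). Imprinted genes had 5 higher and 2 lower of 16, with Peg3 at 155 against 26.5 CPM and Ndn at 23.7 against 78.7 CPM, and a median of 0.01 (GC-centred 0.08).

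The LnF1 pair of libraries offers the same comparison in other mice, and the 2 differences share no library. Across the 9943 genes at or above 5 CPM in both pairs, Pearson's r was 0.868 and Spearman's rho 0.830, with the same direction in 82.2%. Genes of 1 library are no independent replicates, and both pairs carry the GC trend described above, so these values are descriptions. Of 1053 genes at least 2-fold higher in ObF1, 586 (55.7%) were so in LnF1, which is 67.0% of the 875 LnF1 genes. Of 1674 lower in ObF1, 1034 (61.8%) were so in LnF1, 76.4% of its 1353. In the opposite direction by 2-fold was 1 gene, the ribosomal pseudogene Rps16-ps2 (1.41 in ObF1 and -1.33 in LnF1), which may share reads with its parent gene. More genes were past 2-fold in ObF1 than in LnF1 on both sides, a difference without a test.

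Several of the largest differences given above were of like size in LnF1, where Zbtb16 had 9.25, Prg4 6.87, Nov -7.09, Ctgf -6.08, Acta2 -6.09 and Gclc 4.17. Others given above were not: Cd34 stood at 2.01 in ObF1 and -0.18 in LnF1, and Peg3 at 2.54 and 0.75. The genes that departed most from LnF1 did so by more than 2 on the log2 scale. Lower in ObF1 by comparison were Col15a1, a basement membrane collagen, at 25.7 against 172 CPM in ObF1 and 80.3 against 41.5 CPM in LnF1, Rgs4 at -5.24 and -1.61, Igfbp5 at -3.48 and -1.01, Ifit1 at -4.74 and -2.31, and Mcam, a mural adhesion gene, at -5.62 and -3.37. Lama5, a laminin chain, was at -0.83 and 1.45. Higher in ObF1 by comparison were Igfbp3 (344 against 61.4 CPM in ObF1, 213 against 403 CPM in LnF1), Serpina3n (5.41 and 2.59), Gas1, a growth arrest gene (2.35 and 0.06), Fgl2 (3.43 and 1.05) and Dcn, decorin (0.34 and -2.25). Ptn, a heparin-binding growth factor, and H19, an imprinted non-coding RNA, were lower in both, with a low water level in ObF1: Ptn was at 8.44 against 19.2 CPM in ObF1 and 8.93 against 339.6 CPM in LnF1, and H19 at 5.17 against 14.3 CPM and 13.1 against 250.3 CPM. For Igfbp3, Gas1, Dcn, Ptn and H19 the water libraries of the parental groups lay further apart than the 1,3BD libraries. Gas1 stood at 165 CPM in LnF1 and 33.1 CPM in ObF1 with water, and at 173 and 169 CPM with 1,3BD. The same held for Igfbp5 and Col15a1, listed above as lower by comparison. Igfbp5 stood at 24.8 CPM in LnF1 and 128 CPM in ObF1 with water, and at 12.3 and 11.5 CPM with 1,3BD. For Ifit1, Mcam and Lama5 the 1,3BD libraries lay further apart, as ratios. None of these departures has a replicate or a test.

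**Figure D5:**
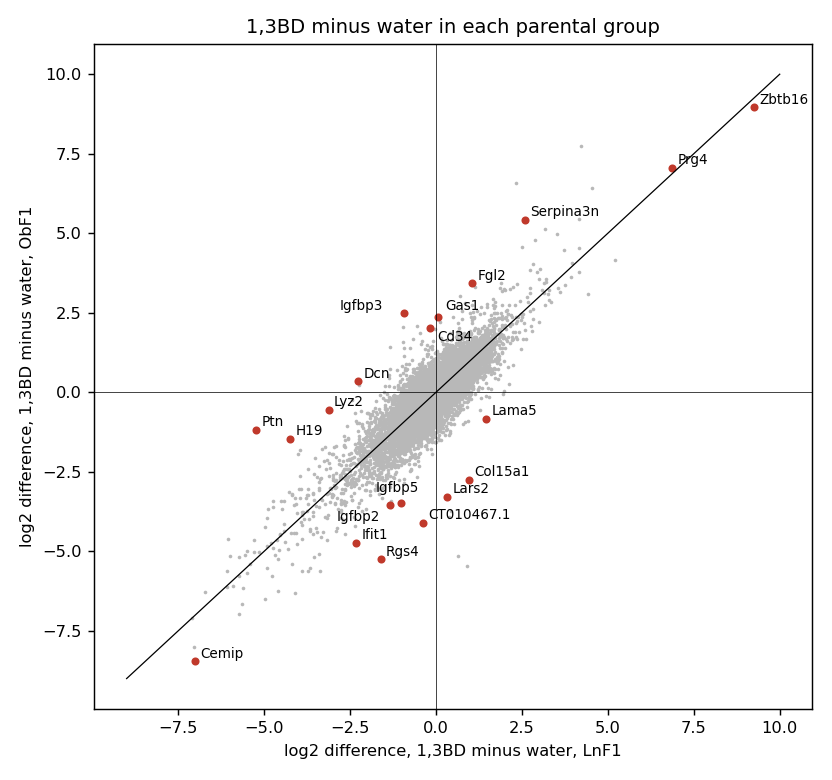
Each point is 1 of the 9943 genes at or above 5 CPM in both parental pairs, with the log2 difference, 1,3BD minus water, in LnF1 across and in ObF1 upward; the line marks equal differences and red points are labelled with their gene. Most genes follow the line (Pearson's r 0.868), with Col15a1 and Lars2 below it and Igfbp3, Ptn and H19 above it.

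Ribosomal RNA models departed from LnF1 too. CT010467.1, a ribosomal RNA model, stood at 1700.5 against 29262 CPM in ObF1 and 16729 against 21814 CPM in LnF1, and Lars2, the mitochondrial leucyl tRNA synthetase gene, at 157 against 1528 CPM and 1059.5 against 844 CPM. Both were low in the library with the low ribosomal RNA share, ObF1 with 1,3BD (0.179%), and whether Lars2 shares sequence reads with ribosomal RNA models was not tested. Leaving mitochondrial, ribosomal RNA and Lars2 reads out of the totals gave 1893 genes higher and 1237 lower in ObF1.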

How the data were processed

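RNA of the stromal vascular fraction was extracted with TRIzol and made into libraries with a KAPA mRNA kit, per the labels' protocols. The deposited table of the whole series holds 1 signal value per gene and library. These deposited signal values are CPM times a scaling factor: dividing each by the smallest step of its column gave whole reads for 100% of values (relative tolerance 1e-06), from which library totals and factors were recovered. The submitters' processing notes name mm10, edgeR and DESeq2; the aligner, read counter, annotation and use of strand are not stated in these sources, so antisense and overlapping genes cannot be separated. In the table, 2339 rows had no symbol, and 2271 of them were named from the reference annotation. Differences were taken on the log2(CPM + 0.08) scale at a mean of at least 5 CPM.

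With 1 library per combination, no test of the ObF1 difference or of its departure from LnF1 was possible, and differences were called by size. Counting intervals are 95% intervals of the ratio of recovered reads. They cover counting error only, not the spread between animals or preparations. As a separate alternative added after seeing the data, edgeR 4.0.16 on the recovered reads of all 4 libraries, additive in parents and drink, called 2628 genes higher and 2910 lower of 12853 with 1,3BD at an adjusted p of 0.05. That model assumes the same difference in both parental groups and takes departures from it as error, so it does not test ObF1. The scripts were tested on simulated data.

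Genes were named by a fixed rule: the 15 largest differences per direction, up to 6 largest and 2 smallest members of each of 46 lists, the 10 per direction with the highest level against 0 to 3 reads, the 12 per direction that depart most from LnF1, the 10 highest by mean, and the markers. Numbered gene models and pseudogenes were skipped. Some list members outside the rule are named for their role, and these, with Gm29216 and Rps16-ps2, were chosen after their values were seen. The comparison, the lists and their members were chosen with earlier results of these data known, so no list is independent evidence. The metallothioneins, Per1, Pdk4 and Cebpd belong to the glucocorticoid list and to another list. Other lists share members too, so their counts overlap. Aldh1a1, Aldh1a2 and Aldh1a3 are in the dehydrogenase and retinoid lists. Atf3 is in the ATF4 and immediate early lists, Cd55 in the progenitor and complement lists, and Hoxc9 in the beige fat and Hox lists.

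Promoter sequences came from RefSeq (GRCm38.p6), and 7970 of the described genes matched an entry. Transcript length and GC came from the longest transcript of the reference, matched for 99.9% of genes. Python 3.11.15 (numpy 2.4.6, pandas 2.3.3, scipy 1.17.1, matplotlib 3.10.9) and R 4.3.3 were used.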

Additional observations from a re-analysis of the deposited data

Results flagged for a closer look

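For 4 genes the difference between 1,3BD and water had opposite signs in ObF1 and LnF1 and the 2 differences stood far apart. None of these departures was tested, because each combination had 1 library. Igfbp3, an IGF carrier, was 3.40 higher on the log2 scale in ObF1 than in LnF1 (344 against 61.4 CPM in ObF1 and 213 against 403 CPM in LnF1, 1,3BD first). Col15a1, a basement membrane collagen, departed by -3.69 (25.7 against 172 CPM and 80.3 against 41.5 CPM). Lars2 departed by -3.61 (157 against 1528 CPM and 1059.5 against 844 CPM), in the library whose ribosomal RNA share was 0.179%; the part of that share was not tested. Rps27rt, a near-identical copy of a ribosomal protein gene whose reads cannot be assigned with certainty, departed by 2.35 (22.9 against 7.08 CPM and 5.88 against 9.38 CPM).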

How the results depend on the processing

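The counts past 2-fold in ObF1 (1115 higher, 1763 lower) depended most on the minimum level and on the scaling. At a mean of at least 20 CPM they were 707 and 1050, and with no minimum 3782 and 4725. With plain library totals 1763 genes were higher and 1260 lower, with totals of nuclear genes 2025 and 1177, and, added after seeing the data, with totals free of mitochondrial, ribosomal RNA and Lars2 reads 1893 and 1237. Pseudocounts of 0.04, 0.5 and 1 CPM, a minimum of 1 CPM, centring on the median gene and centring by GC (added after seeing the data) kept both counts within 1.5 times. Centring by GC gave 911 higher and 1240 lower. No named gene past 2-fold changed sign under the alternatives run, and with library totals 258 of 284 were still past 2-fold, with GC centring 230 of 287. List medians near 0 changed sign with library totals in 6 of 46 lists (values in the report). With nuclear totals 8 changed, and with totals free of mitochondrial, ribosomal RNA and Lars2 reads 6. With GC centring insulin and FOXO signalling (-0.08), chromatin enzymes (0.07) and lysosome genes (0.05) changed. At 20 CPM purine genes (0.06) and adipogenic transcription factors (-0.10) changed. With no minimum beige fat (0.55), imprinted genes (-0.01) and adipogenic transcription factors (-0.08) changed. At a pseudocount of 1 CPM imprinted genes (-0.001) changed. The cause of these shifts was not tested beyond their construction. No paired analysis was possible because each ObF1 group holds 1 library; the edgeR fit over both parental groups has the parents as a term, not replicates. Depth limits genes near 3 reads, 0.130 CPM with water and 0.112 CPM with 1,3BD.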
